A study of Mus musculus with 20 samples.

Results

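The data described here are the transcript levels of 7 genes of the mouse utricle whose products carry, make or modify lipophilic molecules: *Ptgds*, *Apod*, *Ttr*, *Rbp4*, *Apoe*, *Clu* and *Enpp2*. They are 7 of the 25655 genes listed in the deposited tables, of which 15803 had a count. *Ptgds*, *Apod* and *Ttr* were selected on their measured levels, either as abundant transcripts or because their share of the counted reads was lower in OVX + E2 than in OVX + v libraries, and the other 4 were added as genes of lipid carriage and lipid signalling. For brevity all 7 are called carrier genes here, although *Enpp2* encodes an enzyme. For this reason the values of these genes in the OVX + E2 and OVX + v groups are given as a description and were not tested against each other.

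The utricle is the organ of the inner ear that senses linear acceleration. C57BL/6J female mice were sham-operated or ovariectomized (OVX) at 8 weeks of age, and their utricles were taken 4 weeks later. The 4 groups of 5 libraries were sham-operated mice with a vehicle pellet (sham + v), OVX mice with a vehicle pellet (OVX + v), OVX mice with a pellet of 50 µg of estradiol for 60 days (OVX + E2) and OVX mice with a pellet of 2.4 mg of raloxifene for 60 days (OVX + RAL). The labels give no genetic modification, and a pellet was implanted in every group. Raloxifene is a selective estrogen receptor modulator, that is, a ligand that acts as an agonist in some tissues and as an antagonist in others. The labels do not say whether 1 library came from 1 mouse, so that the unit of the tests given here is the library, not the mouse. The edgeR or limma standard error of a gene can be smaller than that from the spread of its libraries, as given below for *Ptgds* and *Ttr*. Library numbers, from 1 to 20, serve as the names of the replicates.

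As background, 3 of these genes (*Ptgds*, *Apod* and *Rbp4*) belong to the lipocalins, small secreted proteins that hold a hydrophobic molecule in a barrel-shaped pocket. *Ptgds* encodes lipocalin-type prostaglandin D synthase, which both makes a prostaglandin and binds retinoids and other lipids. *Apod* encodes apolipoprotein D, a carrier of arachidonic acid and steroids, and *Rbp4* the carrier of retinol in plasma. Transthyretin (*Ttr*) carries thyroxine and holds the retinol-binding protein, and is in the brain the hallmark transcript of the choroid plexus epithelium. Apolipoprotein E (*Apoe*) carries cholesterol and phospholipids between cells, and clusterin (*Clu*) is an extracellular chaperone that is also found on lipoproteins. *Enpp2* encodes autotaxin, an enzyme rather than a carrier, which makes the signalling lipid lysophosphatidic acid.

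The genes lie on 7 chromosomes, and none overlaps another gene of the tables. On GRCm39, the build of the tables, *Ptgds* (ENSMUSG00000015090, 7 exons) spans positions 25356721 to 25360058 of chromosome 2, and *Apod* (ENSMUSG00000022548, 6 exons) positions 31115010 to 31133626 of chromosome 16, both on the minus strand. *Rbp4* (ENSMUSG00000024990, 6 exons) lies at 38105077 to 38113729 of chromosome 19 and *Apoe* (ENSMUSG00000002985, 4 exons) at 19430034 to 19433113 of chromosome 7, also on the minus strand. *Enpp2* (ENSMUSG00000022425), with 25 exons the longest of them, reaches from 54702297 to 54816288 of chromosome 15 on the minus strand. *Clu* (ENSMUSG00000022037, 9 exons) lies at 66205932 to 66218996 of chromosome 14 and *Ttr* (ENSMUSG00000061808, 4 exons) at 20798337 to 20807378 of chromosome 18, on the plus strand.

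RNA was sequenced by a 3′ method, in which 1 site per transcript is read, so that the levels of different genes are compared here as CPM (the count scaled to the same total in each library) without division by length. Total counts ran from 1507719 to 2053255 (sham + v), 1435156 to 2019032 counts (OVX + v), 1123053 to 1507667 (OVX + E2) and 1702313 to 2081747 (OVX + RAL). All OVX + E2 libraries except replicate 11 were smaller than every library of the other groups, and 7427 to 9680 genes had a count in them, against 10004 to 10694 for OVX + v. Sham + v replicate 1 stood apart before any comparison. It held 4.80% of its counts on mitochondrial genes, against 9.92% to 12.3% in the other 4 sham + v libraries, and 10.98% on the 7 carrier genes, against 5.08% to 5.83%. In the OVX + RAL group replicate 16 stood out in the same way, with 6.42% on mitochondrial genes and 11.1% on the carrier genes. OVX + E2 replicate 11 had 7.54% and 7.25%, against 9.76% to 11.8% and 4.71% to 5.58% in the other 4 OVX + E2 libraries. OVX + v replicates 6 and 9 likewise had the lowest mitochondrial shares (8.36% and 7.16%) and the highest carrier shares (7.51% and 7.31%) of their group. The part of this in the levels of the carrier genes was not tested.

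The promoters of *Ptgds*, *Apod* and *Apoe* are shown because the levels of these 3 genes varied together between libraries. Each run is the 250 bases before the start of transcription in RefSeq on GRCm38.p6, an older build than that of the tables. They are chr2:25469750-25469999 for *Ptgds*, chr16:31314809-31315058 for *Apod* and chr7:19699189-19699438 for the first of 3 starts of *Apoe*, all 5′ to 3′ on the minus strand. Capitals mark a match, on either strand, to an estrogen response element (the half-site GGTCA, 3 bases of any kind and the reverse half-site TGACC), to the half-site alone or to an AP-1 site (TGANTCA), the letters of a site where estrogen receptors can act through other factors.

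Ptgds: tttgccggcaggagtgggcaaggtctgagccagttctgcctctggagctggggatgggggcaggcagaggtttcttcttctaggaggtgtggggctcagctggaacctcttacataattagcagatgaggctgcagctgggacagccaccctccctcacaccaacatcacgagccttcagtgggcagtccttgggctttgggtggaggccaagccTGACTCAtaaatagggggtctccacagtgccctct
Apod: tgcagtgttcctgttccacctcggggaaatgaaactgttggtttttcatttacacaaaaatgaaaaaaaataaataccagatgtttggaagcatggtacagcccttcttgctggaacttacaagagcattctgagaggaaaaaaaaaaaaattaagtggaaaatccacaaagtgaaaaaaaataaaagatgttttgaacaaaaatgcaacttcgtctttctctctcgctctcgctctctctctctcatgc
Apoe: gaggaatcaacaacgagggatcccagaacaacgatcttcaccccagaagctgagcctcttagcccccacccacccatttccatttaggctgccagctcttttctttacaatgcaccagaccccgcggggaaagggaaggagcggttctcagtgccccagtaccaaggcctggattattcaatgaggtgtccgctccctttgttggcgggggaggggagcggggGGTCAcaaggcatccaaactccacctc

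The *Ptgds* promoter held 1 AP-1 match, which begins 35 bases before the start, and the *Apoe* promoter held 1 half-site, 27 bases before the start. The *Apod* window held neither, and no window of the 4 members with a promoter in the table (*Ptgds*, *Apod*, *Rbp4* and *Apoe*) held the full response element. The 2 starts of *Rbp4* held 2 half-sites and 1 AP-1 match respectively. Over all 32851 promoters of the table, the full element was found in 0.0639%, the half-site in 35.2% and the AP-1 letters in 6.75%, so that the half-site was a common match. The motifs were chosen with these sequences in view, and a match of letters is not evidence of binding.

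*Ptgds* was the gene with the most counts in each of the 20 libraries. Sham + v replicates 1 to 5 had 85939, 37322, 39966, 43311 and 45432 CPM. OVX + v replicates 6 to 10 had 58128, 49105, 49152, 54208 and 46846 CPM. The OVX + v libraries thus lay close together, and all of the sham + v libraries but replicate 1 were below them. OVX + E2 replicates 11 to 15 had 54189, 38160, 41188, 35057 and 40768 CPM of *Ptgds*. OVX + RAL replicates 16 to 20 had 81412, 52721, 58279, 42371 and 42804 CPM. Replicate 11 was the highest OVX + E2 library and the other 4 were below every OVX + v library, while the OVX + RAL libraries overlapped with all other groups. The means were 50394 ± 20111 (sham + v), 51488 ± 4588 CPM (OVX + v), 41872 ± 7308 (OVX + E2) and 55517 ± 15972 CPM (OVX + RAL, SD, n = 5 each).

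*Apod* was the eighth gene of the utricle by its mean, with ranks from 2 to 11 in single libraries. Its level was 14264, 8002, 7291, 7671 and 7474 CPM with sham + v and 10072, 10850, 9493, 11171 and 9561 CPM with OVX + v. It was 10400, 7507, 7947, 7008 and 8429 CPM with OVX + E2 and 20502, 12532, 7800, 7867 and 8625 CPM with OVX + RAL. The pattern was that of *Ptgds*: the high libraries were again replicates 1 and 16, and 4 of 5 sham + v and 4 of 5 OVX + E2 libraries lay below all OVX + v libraries. The group means were 8941 ± 2988 (sham + v), 10229 ± 756 CPM (OVX + v), 8258 ± 1308 (OVX + E2) and 11465 ± 5414 CPM (OVX + RAL, SD, n = 5 each).

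*Ttr* was far less abundant and far more variable. The counts, as deposited, were 863, 264, 919, 555 and 0 reads with sham + v and 957, 1070, 555, 553 and 560 reads with OVX + v. They were 244, 188, 8, 311 and 106 reads with OVX + E2 and 833, 91, 304, 814 and 708 reads with OVX + RAL. Single libraries of 3 groups thus had few or no reads of *Ttr*, and the OVX + v group had none below 553 reads. In sham + v replicate 5, 0 reads allow a level of up to 1.99 CPM (3 counts, counting error only). As CPM, the group means were 283 ± 217 (sham + v), 449 ± 176 CPM (OVX + v), 132 ± 101 (OVX + E2) and 285 ± 166 (OVX + RAL, SD, n = 5 each). The SD was over 39% of the mean in each group, and the highest OVX + E2 library (277 CPM) overlapped with the lowest OVX + v library (274 CPM).

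*Rbp4*, whose protein is carried in plasma by transthyretin, ranked 977th by its mean. It was at 260, 130, 192, 218 and 257 CPM in the sham + v libraries and at 153, 153, 107, 159 and 153 CPM in the OVX + v libraries. All sham + v libraries except replicate 2 were above all OVX + v libraries. The OVX + E2 libraries ranged from 76.9 to 190 CPM and the OVX + RAL libraries from 64.4 to 280 CPM, which enclosed the whole OVX + v range. The ratio of *Ttr* to *Rbp4* within a library ran from 0 to 5.28, so that the carrier of retinol and its partner were not present in a fixed proportion.

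Among the lipoprotein components, *Apoe* (rank 14) had means of 4823 ± 1087 (sham + v), 5208 ± 403 CPM (OVX + v), 4122 ± 1024 (OVX + E2) and 4979 ± 1060 CPM (OVX + RAL, SD, n = 5 each). *Clu* (rank 62) had 1069 ± 502, 1448 ± 73.2, 1302 ± 316 and 1325 ± 254 CPM in the same order. *Clu* was at 1897, 877, 990, 1039 and 541 CPM in the sham + v libraries and between 1332 and 1521 CPM in the OVX + v libraries. As for *Ptgds* and *Apod*, replicate 1 was above and the other 4 sham + v libraries were below every OVX + v library, and this held for *Apoe* too. *Enpp2* (rank 624) had 255 ± 66.8, 221 ± 54.9, 278 ± 115 and 169 ± 49.6 CPM. The highest *Enpp2* mean was that of the OVX + E2 group and the lowest that of the OVX + RAL group, and the ranges of these groups (126.4 to 397 and 101 to 217 CPM) overlapped.

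**Figure D1:**
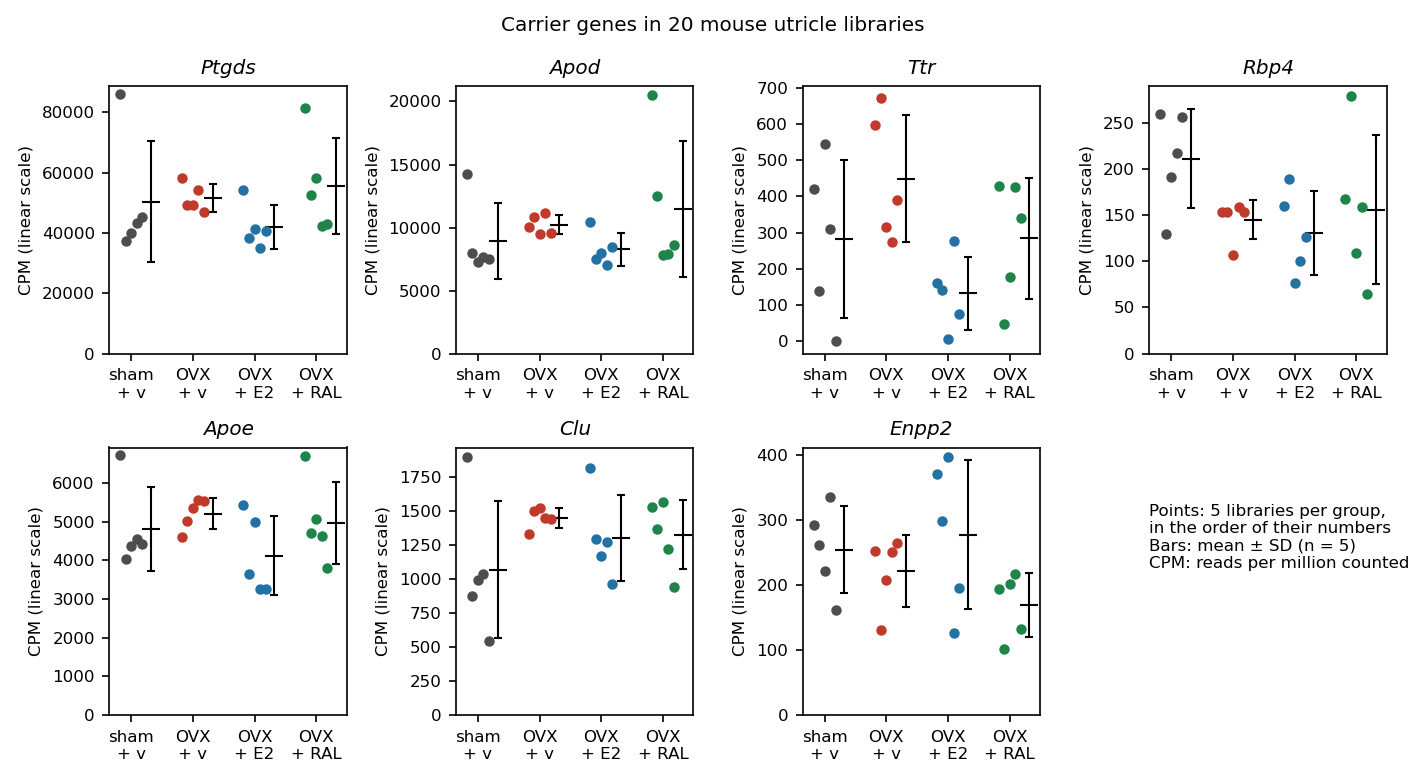
Level of the 7 carrier genes (CPM, linear axes, 1 panel per gene) in each of the 20 libraries, with the mean ± SD of 5 libraries per group. The OVX + v libraries lie close together for *Ptgds*, *Apod*, *Apoe* and *Clu*, sham + v replicate 1 and OVX + RAL replicate 16 are the highest points of *Ptgds* and *Apod*, and *Ttr* reaches 0 in sham + v replicate 5.

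The order of *Ptgds*, *Apod*, *Apoe* and *Clu*, from the highest level to the lowest, was the same in every library, and their ranges over the 20 libraries (35057 to 85939, 7008 to 20502, 3257 to 6737 and 541 to 1897 CPM) did not overlap. The ranges of *Ttr*, *Enpp2* and *Rbp4* overlapped, and their order changed between libraries.

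The coefficient of variation (SD as a percentage of the mean) was smallest in the OVX + v group for all 7 genes. That of *Ptgds* was 8.91% with OVX + v against 39.9% with sham + v, 17.5% with OVX + E2 and 28.8% with OVX + RAL. For *Clu* it was 5.05% against 47.0%, 24.3% and 19.2%. The OVX + v group had the lowest coefficient of variation for 51.1% of 94 genes with a mean of at least 1000 CPM and for 36.9% of 1721 genes with a mean of at least 100 CPM. A low coefficient of variation in the OVX + v libraries was therefore also common among other abundant genes. The share of the library on the 7 genes together was 6.42% to 7.51% for OVX + v and 4.71% to 7.25% for OVX + E2.

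The OVX + E2 group differed from the OVX + v group, in which the genes were chosen, as follows. The ratio of the means was 0.813 for *Ptgds*, 0.807 for *Apod* and 0.295 for *Ttr*, and the log2 fold changes fitted by edgeR were -0.30, -0.31 and -1.78. The genes that had not been chosen for this contrast had log2 fold changes of -0.34 (*Apoe*), -0.15 (*Clu*), -0.13 (*Rbp4*) and 0.34 (*Enpp2*). Measured by the spread of the libraries, the difference of mean log2(CPM + 1) was -0.31 ± 0.12 (standard error) for *Ptgds*, -0.32 ± 0.11 for *Apod* and -2.38 ± 0.95 for *Ttr*. At least 4 of 5 OVX + E2 libraries were below every OVX + v library for *Ptgds*, *Apod*, *Ttr* and *Clu*, while the fifth *Clu* library was above all of them. This held for 3.95% of the 13695 genes tested in this contrast, and 0.0657% of these genes passed an adjusted p of 0.05 by edgeR. The scaling mattered here: with TMM factors the median log2 fold change of all genes moved from -0.056 to -0.16, and *Ptgds* came to -0.41, *Apod* to -0.42, *Ttr* to -1.89, *Apoe* to -0.45, *Clu* to -0.27, *Rbp4* to -0.24 and *Enpp2* to 0.23. With 1 library left out *Rbp4* ran from -0.30 to 0.0042, *Clu* from -0.31 to -0.059 and *Enpp2* from 0.18 to 0.51. Against the sham + v group the OVX + E2 mean was 0.831 times that of *Ptgds*, 0.924 times that of *Apod* and 0.468 times that of *Ttr*, and the libraries of both groups overlapped for each of these genes.

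The question of the sham + v against OVX + v comparison was the effect of ovariectomy. For the carrier genes no difference passed the threshold: 0 of 7 had an adjusted p under 0.05 by edgeR (quasi-likelihood test, Benjamini-Hochberg adjustment over 13825 genes), of which 0.00723% (1 gene) passed. At an unadjusted p under 0.05 there were 2, *Ttr* (log2 fold change of sham + v to OVX + v -0.64, adjusted p = 0.866) and *Clu* (-0.43, adjusted p = 0.866). Of all genes tested in this comparison 5.48% had such a p by edgeR. DESeq2 called 0 of the 7. The exact permutation test could not call a single gene after adjustment over all genes, so that its 0 calls are no support. Limma on log2(CPM + 1) called *Ttr* alone (-2.08, standard error 0.381, adjusted p = 3.13e-04). From the spread of the libraries the standard error of this difference was 1.71, and the exact permutation p was 0.206. On log2(CPM + 0.1) limma gave *Ttr* -2.75 (adjusted p = 0.885). Sham + v replicate 5 had 0 reads of *Ttr*, and without it the log2 fold change by edgeR was -0.34, while without replicate 3 it was -0.996. *Clu* came to -0.75 (adjusted p = 0.158) without replicate 1 and to -0.27 without replicate 5. *Rbp4* had the smallest exact permutation p (two-sided p = 0.0397, adjusted p = 1), with a difference of mean log2(CPM + 1) of 0.51 ± 0.21 (standard error) and 4 of 5 sham + v libraries above all OVX + v libraries, as for 1.5% of all genes tested.

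Between sham + v and OVX + v the log2 fold change of *Ptgds* was -0.031 (edgeR standard error 0.0703, adjusted p = 0.944) and that of *Apod* -0.19 (0.114, adjusted p = 0.866). For both genes this rested on sham + v replicate 1. Without it *Ptgds* came to -0.31 (adjusted p = 6.66e-05) and *Apod* to -0.43 (adjusted p = 0.0287), both past the threshold, with 4 of 4 sham + v libraries below every OVX + v library. In the robust form of the edgeR fit without that library the adjusted p was 0.268 for both genes, and the exact permutation p was 0.00794, the smallest that 4 against 5 libraries can give, with an adjusted p of 0.955. *Clu* had the same exact p and *Apoe* 0.0159 without replicate 1. At least 4 of 5 sham + v libraries were below every OVX + v library for *Ptgds*, *Apod*, *Apoe* and *Clu*, as for 2.28% of all genes tested. These OVX + v libraries are the same that took part in choosing *Ptgds*, *Apod* and *Ttr*, so that this comparison is not independent of the choice.

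The marker genes of sham + v replicate 1 differed from those of its group as well. Summed over their lists, the markers of arachnoid and perivascular fibroblasts were at 2455 CPM in replicate 1, the highest of all 20 libraries. The markers of vestibular dark cells, the cells that secrete potassium into endolymph, were at 1136 CPM against a group median of 2805 CPM. Endothelial markers were at 82.3 CPM against a median of 356 CPM. OVX + RAL replicate 16 had 1220 CPM of the dark cell markers against a group median of 2656 CPM, and 128 CPM of the endothelial markers against 294 CPM. Its fibroblast markers (2019 CPM) were the highest of its group, with a median of 1844 CPM. Supporting cell markers were highest of their groups in replicates 1 and 16, at 2169 and 2725 CPM against medians of 1929 and 1689 CPM. The same held for OVX + v replicate 9 (2892 CPM) and OVX + E2 replicate 11 (2897 CPM). Markers of otoconia and the otolithic membrane were lowest of their groups in replicates 1 and 16, at 3600 and 3943 CPM. Macrophage markers were at 995 CPM in replicate 1, the highest of all libraries, against a group median of 386 CPM, but at 370 CPM in replicate 16 against 421 CPM. Skeletal muscle markers were at 99.4 CPM in replicate 1, against at most 3.15 CPM in the other sham + v libraries, and at 314 and 298 CPM in replicates 16 and 17, against at most 51.7 CPM in the other OVX + RAL libraries. Their part in the levels of the carrier genes was not tested. In such bulk samples fewer cells of a type and less RNA per cell cannot be told apart.

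The OVX + RAL against OVX + v comparison asked whether raloxifene after ovariectomy changed the levels. It uses the OVX + v libraries that took part in choosing *Ptgds*, *Apod* and *Ttr*, so that it is not independent of the choice. By edgeR 0 of 7 carrier genes passed the threshold, as against 0.05% of 14002 genes (7 genes), and DESeq2 and limma also called 0. The exact permutation test called 0 too, but could not call a single gene after adjustment over all genes. *Ttr* was the single member with an unadjusted p under 0.05, at -0.64 on the log2 scale (standard error 0.289, adjusted p = 0.766). Of all genes tested in this comparison 6.21% had such a p by edgeR. Without OVX + RAL replicate 17, which had 91 reads of it, *Ttr* came to -0.37 (unadjusted p = 0.216), and with any 1 library left out it ran from -0.83 to -0.37. *Enpp2* had -0.39 (standard error 0.350, adjusted p = 0.854), with values from -0.53 without OVX + v replicate 7 to -0.26 without OVX + RAL replicate 17, and the other 5 genes had values between -0.13 and 0.16. The sign of *Ptgds* (0.11) and *Apod* (0.16) rested on replicate 16: without it they came to -0.070 and -0.15. The intervals of 2 standard errors around the difference of mean log2(CPM + 1), from the spread of the libraries, were -0.29 to 0.43 for *Ptgds*, -0.48 to 0.60 for *Apod* and -2.20 to 0.36 for *Ttr*.

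The OVX + RAL and sham + v groups share no library with the contrast from which *Ptgds*, *Apod* and *Ttr* were chosen. In this comparison too 0 of 7 carrier genes passed the threshold by edgeR, as against 0.0576% of 13883 genes (8 genes), and DESeq2 and limma called 0. The 0 calls of the exact permutation test were again fixed by the adjustment over all genes. *Apod* had the smallest p, with a log2 fold change of OVX + RAL to sham + v of 0.36 (standard error 0.129, unadjusted p = 0.00538, adjusted p = 0.685), which came to 0.042 without OVX + RAL replicate 16. *Ptgds* had 0.14 (adjusted p = 0.838), *Clu* 0.30, *Rbp4* -0.44 and *Enpp2* -0.60 (adjusted p = 0.838). *Clu* ran from 0.14 without sham + v replicate 5 to 0.62 without sham + v replicate 1, and *Rbp4* from -0.76 without OVX + RAL replicate 17 to -0.23 without OVX + RAL replicate 20. For *Enpp2* the OVX + RAL libraries ranged from 101 to 217 CPM and the sham + v libraries from 161 to 336 CPM, with an exact permutation p of 0.0635 (adjusted p = 1). The means of *Ttr* were nearly equal, at 285 and 283 CPM, although the libraries ran from 0 to 545 CPM. On log2(CPM + 1) the difference of the *Ttr* means was 1.16 ± 1.79 (standard error), and limma on log2(CPM + 0.1) gave 1.82 (adjusted p = 0.880).

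The high libraries set the calls in this comparison as well. Without sham + v replicate 1 *Ptgds* came to 0.42 (adjusted p = 1.76e-04) and *Apod* to 0.59 (adjusted p = 0.00347). Without OVX + RAL replicate 16 alone they came to -0.039 and 0.042, neither past the threshold. With both libraries left out *Ptgds* came to 0.24 (adjusted p = 0.0243) and *Apod* to 0.27 (adjusted p = 0.676). The robust form of the fit without both libraries gave an adjusted p of 0.653 for *Ptgds*, and the exact permutation test a p of 0.200. The edgeR standard error of *Ptgds* in the main comparison (0.0829) was smaller than the standard error from the spread of its libraries (0.277 on log2(CPM + 1)), and the same held in the other tested comparisons.

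**Figure D2:**
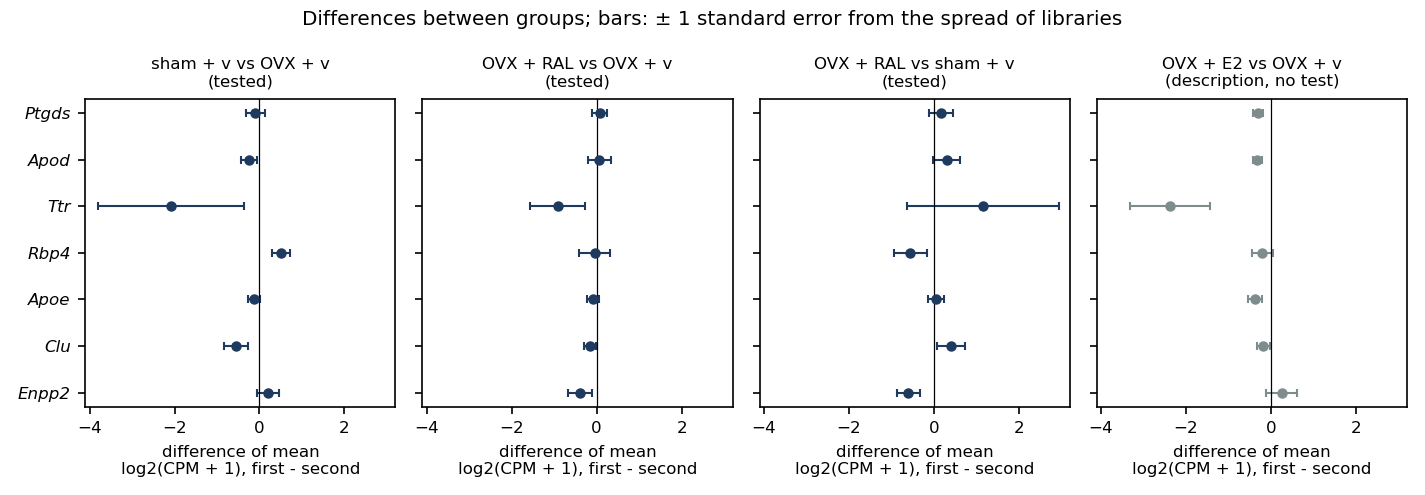
Difference of mean log2(CPM + 1) between groups for each carrier gene, first group minus second, in 4 panels (5 libraries per group). Bars are 1 standard error from the spread of the libraries; the 3 tested comparisons have values on both sides of 0, and the panel of OVX + E2 against OVX + v (grey) is a description without a test.

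Within the groups, the most abundant carriers varied together. After the group mean was subtracted from log2(CPM + 1), *Ptgds* and *Apod* had Pearson's r = 0.84 (permutation p = 0.00268, adjusted p = 0.0244) and Spearman's rho = 0.71 (adjusted p = 0.0398) over the 20 libraries. All adjusted values of this kind are over the 21 pairs of the 7 genes. *Ptgds* and *Apoe* had r = 0.81 (permutation p = 0.00087, adjusted p = 0.0183, rho = 0.65, adjusted p = 0.0398), and *Apoe* and *Clu* r = 0.70 (permutation p = 0.00349, adjusted p = 0.0244, rho = 0.67, adjusted p = 0.0398). *Apod* and *Apoe* had r = 0.71 (permutation p = 0.00670, adjusted p = 0.0352), but rho = 0.55 had an adjusted p of 0.0999. In the other 17 pairs the adjusted p of r was not under 0.05.

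These relations were weaker without the libraries of the highest *Ptgds* levels. Without sham + v replicate 1 and OVX + RAL replicate 16, the libraries farthest from the median, r was 0.61 for *Ptgds* with *Apod*, 0.64 for *Ptgds* with *Apoe*, 0.56 for *Apoe* with *Clu* and 0.42 for *Apod* with *Apoe*. *Ttr* did not vary with *Ptgds* in this measure (r = 0.099, permutation p = 0.751) nor with *Rbp4* (r = -0.066, permutation p = 0.780). The ratio of *Ptgds* to *Apod* was 5.06 ± 0.151 (SD, n = 5) in the OVX + E2 libraries and 5.05 ± 0.467 in the OVX + v libraries. It was 5.58 ± 0.570 in the sham + v libraries and 5.2 ± 1.39 in the OVX + RAL libraries, with 3.97 in replicate 16 and up to 7.47 in that group. The levels in the OVX + E2 and OVX + v groups took part in choosing both genes, so that these ratios are a description alone. For *Ptgds* and *Apoe* the ratio was 10.4 ± 1.54 in the OVX + E2 libraries and 9.97 ± 1.59 in the OVX + v libraries (SD, n = 5 each).

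**Figure D3:**
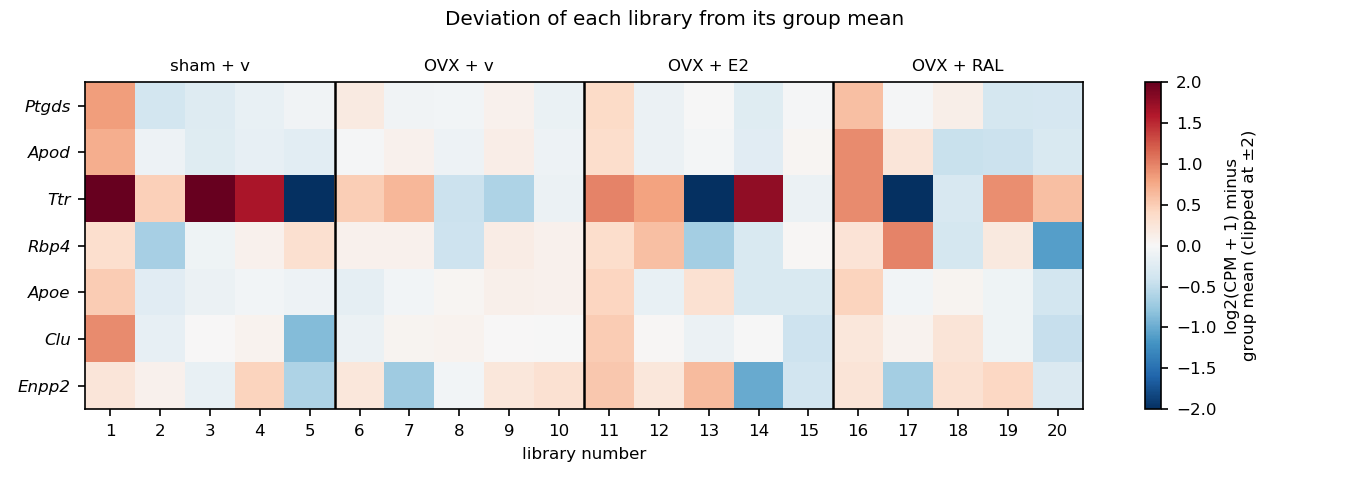
Deviation of log2(CPM + 1) from the group mean for each gene (rows) in each library (columns 1 to 20), in blue below and in red above the group mean. Replicates 1, 11 and 16 are red for *Ptgds*, *Apod*, *Apoe* and *Clu* together, while the strongest deviations of *Ttr* are in other libraries such as 5, 13 and 17.

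The genes most like each carrier were looked for among 9533 genes with a mean of at least 10 CPM, as a description over the same 20 libraries. *Coch*, which encodes the matrix protein cochlin of inner ear fibrocytes, was the most like *Ptgds* (r = 0.91, and 0.78 without replicates 1 and 16). *Coch* was at 8535 CPM in sham + v replicate 1 against 4164 to 4772 CPM in the other 4 sham + v libraries, and at 8548 CPM in OVX + RAL replicate 16. *Mettl7a1* (r = 0.81) was also in the list of *Ptgds*, beside *Apod* and *Apoe*. The ratio of *Ptgds* to *Coch* had a mean of 9.51 ± 0.653 (sham + v), 8.04 ± 0.583 times *Coch* (OVX + v), 7.39 ± 0.551 (OVX + E2) and 9.62 ± 1.35 (OVX + RAL, SD, n = 5 each).

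*S100b*, a calcium-binding protein of glial cells including Schwann cells, was the most like *Apod* (r = 0.84, rho = 0.83, and r = 0.78 without replicates 1 and 16). *S100b* was at 19637 and 19944 CPM in OVX + RAL replicates 16 and 17 and between 5300 and 11427 CPM in the other 18 libraries. The same replicates had the highest *Apod* levels of their group (20502 and 12532 CPM) but the lowest sums of the other 9 markers of Schwann cells and myelin in that group, at 2095 and 2580 CPM against 2605 to 2939 CPM in replicates 18 to 20. By edgeR *S100b* was the single gene of the marker lists past the threshold in a tested comparison, OVX + RAL against sham + v (log2 fold change 0.71, adjusted p = 1.58e-04), and this was lost without replicate 16 and without replicate 17, though not with sham + v replicate 1 and OVX + RAL replicate 16 both left out. DESeq2, limma on log2(CPM + 0.1), filterByExpr and the robust form of the edgeR fit did not call it. The exact permutation test did not call it either, but could not have done so after adjustment over all genes. In OVX + E2 against OVX + v *S100b* was also past the threshold by edgeR and lower (log2 fold change -0.55, adjusted p = 0.00104), with means of 6255 and 9141 CPM. This call was lost in the robust fit, with filterByExpr and without OVX + E2 replicate 14. The exact permutation test could not have made it after adjustment over all genes. *Car3*, *Coch* and *Pdzk1ip1* were the further genes like *Apod*, beside *Ptgds*.

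Of the other carriers, *Apoe* was most like *Luc7l3* (r = 0.81), *Ptgds*, *Coch*, *Akr1b10* and *Cep250*. *Clu* was most like *Otor* (r = 0.86), which encodes the secreted protein otoraplin of the inner ear. The rank correlation of *Clu* and *Otor* was lower (rho = 0.39), and *Otor* reached its highest level (2287 CPM) in replicate 1 and its lowest (294 CPM) in replicate 5, the same libraries as *Clu*. *Chchd2*, *Mmut*, *Abhd14b* and *Car3* followed. The list of *Ttr* (*Banp*, *Ccdc88a*, *Thap11*, *Smarce1* and *Rab1a*, r from 0.85 to 0.88) was led by genes at 53.3 to 178 CPM and held none of the other carriers. The same was true of *Rbp4* (*Rapgef4*, *Lims1*, *Eif1ax*, *Akap8* and *Thoc7*, r from 0.73 to 0.78) and of *Enpp2* (*Rufy3*, *Lamp2*, *Zfp275* and *Syf2*, r from 0.796 to 0.828).

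**Figure D4:**
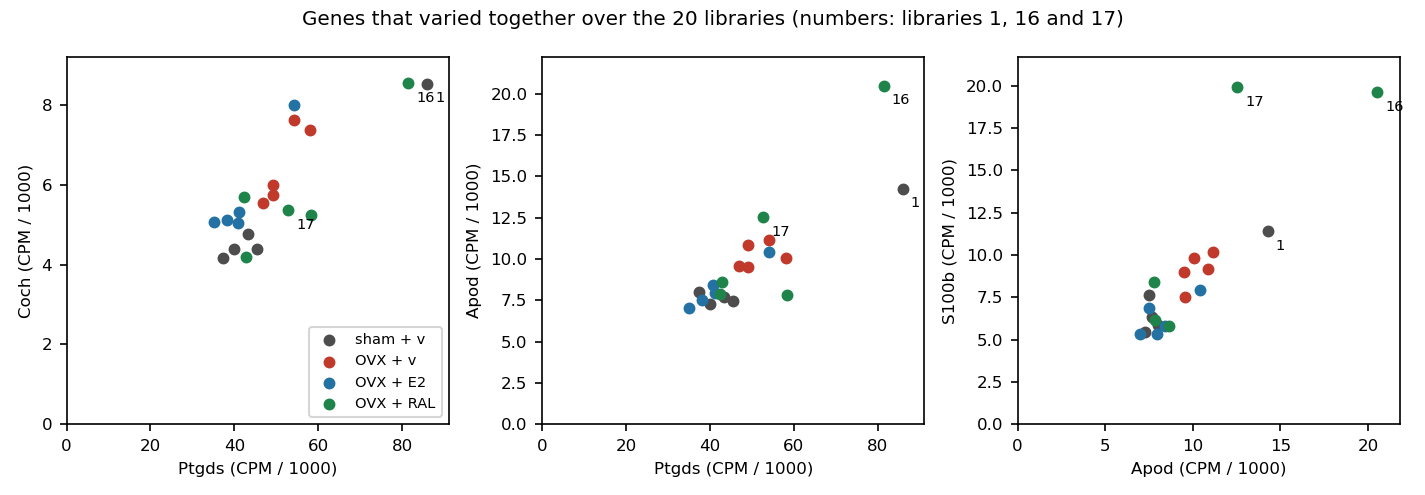
Levels of *Coch* and *Apod* against *Ptgds*, and of *S100b* against *Apod*, as CPM divided by 1000 on linear axes, with 1 point per library coloured by group. Libraries 1 and 16 are the highest for *Ptgds*, and libraries 16 and 17 are apart from the others for *S100b*, at 19637 and 19944 CPM.

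The tissue was checked against marker genes. All 10 hair cell markers had counts, with a summed level of 922 to 2162 CPM over the 20 libraries, as had all 8 markers of otoconia and the otolithic membrane (3600 to 6431 CPM). Of the 8 supporting cell markers 7 had a count, with *Hes5* at 0 (1139 to 2897 CPM). The markers of melanocytes (352 to 1665 CPM), macrophages (157 to 995 CPM), erythroid cells (363 to 3837 CPM) and skeletal muscle (0 to 314 CPM) were present at levels that varied between libraries. Of these marker lists, including those of fibroblasts, dark cells, Schwann cells and endothelium, none but the Schwann cell list had a gene past the threshold by edgeR in the 3 tested comparisons. Without sham + v replicate 1 the melanocyte gene *Dct* also passed in OVX + RAL against sham + v, and *S100b* was also called, lower in sham + v than in OVX + v, as it was by limma on log2(CPM + 1) with all libraries.

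Since *Ttr* is the hallmark of the choroid plexus, 12 other markers of that epithelium were summed. They reached 23.1 to 144 (sham + v), 31.4 to 149 CPM (OVX + v), 77.9 to 353 (OVX + E2) and 61.7 to 180 CPM (OVX + RAL), and 11 of the 12 had a count in some library. *Otx2* (mean 33.3 CPM), *Tmem72* (23.9 CPM) and *Sostdc1* (22.9 CPM) made up most of the sum, while *Slc4a5* was at 0 in all libraries, *Folr1* had counts in 2 libraries and *Kcnj13* in 4. In the OVX + v group replicates 6 and 7 had the most *Ttr* (596 and 671 CPM) and the most of the markers (149 and 117 CPM). In the OVX + RAL group replicates 16, 19 and 20 were above replicates 17 and 18 in both (*Ttr* 428, 427 and 340 CPM, markers 159, 134 and 180 CPM). Replicate 14 had the highest value of both in the OVX + E2 group (277 and 353 CPM). Other libraries lay apart from this order: OVX + E2 replicate 13 had 6.41 CPM of *Ttr* beside 167 CPM of the markers, and sham + v replicate 5 had 0 reads of *Ttr* beside 71.0 CPM. In the sham + v group replicate 3 had the most *Ttr* (545 CPM) beside 41.5 CPM of the markers, under the group median of 50.9 CPM. Replicate 1 had the most markers of that group (144 CPM) beside 420 CPM of *Ttr*. The markers differed among themselves between groups: *Otx2* had a mean of 86.5 CPM with OVX + E2 against 13.96 CPM with OVX + v, while *Kl*, *Kcnj13* and *Folr1* were at 0 in the OVX + E2 libraries against means of 4.95, 4.50 and 4.92 CPM with OVX + v. The part of choroid plexus RNA in the level of *Ttr* was not tested. By edgeR 0 of the 8 to 10 markers tested passed the threshold in each of the 3 tested comparisons.

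**Figure D5:**
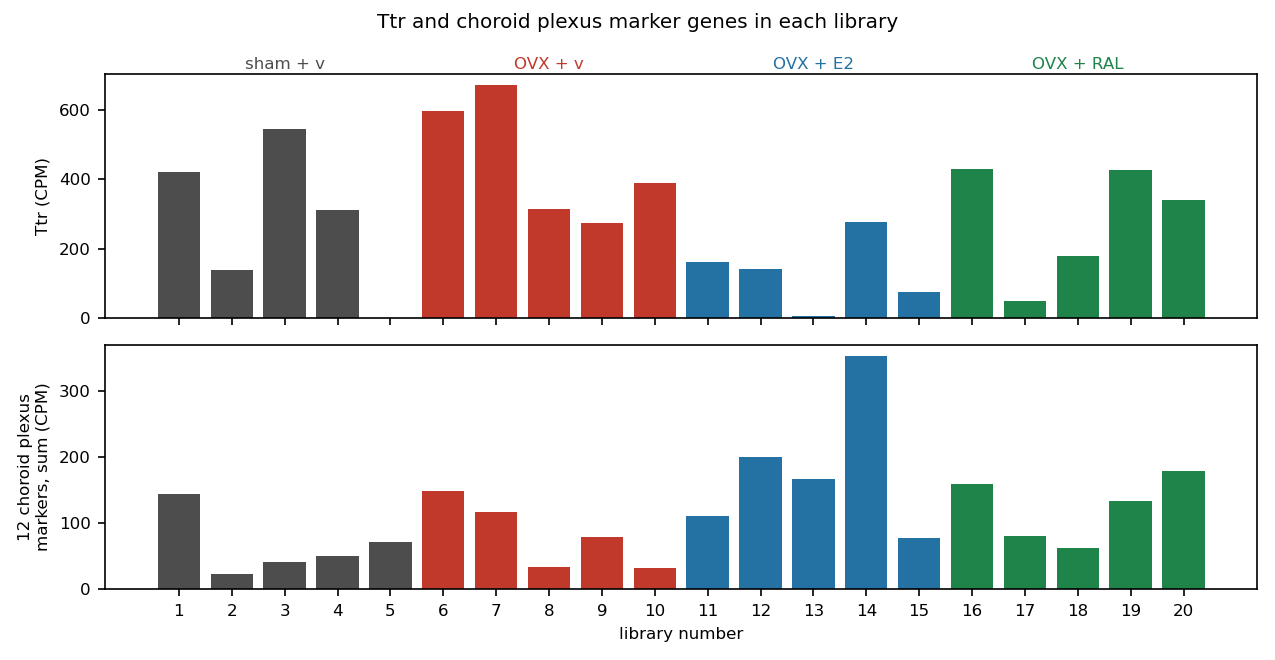
*Ttr* (upper bars) and the sum of 12 other choroid plexus markers (lower bars) in CPM for each of the 20 libraries, with axes from 0. The OVX + E2 libraries (11 to 15) have 6.41 to 277 CPM of *Ttr* and 77.9 to 353 CPM of the markers.

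The pathways around the carriers were described with lists of genes. Of 25 genes of prostaglandin synthesis and signalling 22 had a count, led by the synthase *Ptges3* (mean 114 CPM), the reductase *Ptgr2* (64.3 CPM) and *Akr1b3* (61.3 CPM). The cyclooxygenases, which make the substrate of *Ptgds*, were hardly seen: *Ptgs1* had counts in 3 and *Ptgs2* in 3 of the 20 libraries. The receptor *Ptgdr* had a count in 1 library (0.480 CPM) and *Ptgdr2* in 1 (17.5 CPM), while the other prostaglandin D synthase, *Hpgds*, had counts in 7. *Ptgds* was thus read at the highest level of all genes, while the transcripts of both prostaglandin D receptors were seen in 1 library each at this depth. Of the list 18 genes were tested in the sham + v and OVX + RAL comparisons with OVX + v and 19 in OVX + RAL against sham + v. By edgeR 0 passed the threshold, with 1 gene at an unadjusted p under 0.05 in each comparison. Of all genes tested 5.48%, 6.21% and 6.07% had such a p in these comparisons. The median log2 fold changes of the list were 0.059, 0.15 and 0.52 beside -0.017, -0.032 and -0.020 over all genes.

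Of 9 other lipocalins *Lcn2* (2.06 CPM) and *Obp2b* (1.87 CPM) had a count, and the other 7 were at 0 in all libraries. *Ptgds*, *Apod* and *Rbp4* were thus nearly all of the lipocalin counts among the genes examined. Of 22 genes of retinoid uptake, storage and signalling 18 had a count, among them the retinaldehyde dehydrogenase *Aldh1a1* (307 CPM) and the reductase *Dhrs3* (92.6 CPM). *Stra6*, the membrane receptor of the retinol-binding protein, was at 12.98 CPM with counts in 11 libraries. All 11 genes of thyroid hormone transport and signalling had a count, led by the target gene *Klf9* (380 CPM) and the receptor *Thra* (369 CPM). *Dio2*, which activates thyroxine, was at 15.9 CPM.

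Of 22 genes of lipoprotein assembly and receptors 19 had a count, led by the receptors *Lrp1* (283 CPM), *Sorl1* (279 CPM) and *Lrp2* (232 CPM). Of 11 genes of lysophosphatidic acid signalling 10 had a count, led by the phosphatase *Plpp3*, which degrades the product of *Enpp2* (416 CPM), its receptor *Lpar1* (274 CPM) and *Lypla2* (66.9 CPM). *Enpp2* was thus read beside both a receptor and a degrading enzyme at similar levels. All 7 intracellular fatty acid and acyl-CoA binding genes had a count, led by *Dbi* (1080 CPM), *Acbd3* (65.6 CPM) and *Fabp3* (42.5 CPM).

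In these lists 0 genes passed the threshold in any of the 3 tested comparisons by edgeR, DESeq2 or limma. The exact permutation test called 0 too, but could not call a single gene after adjustment over all genes. The retinoid list had 16 genes tested in each comparison, with median log2 fold changes of -0.071 (sham + v against OVX + v), 0.18 (OVX + RAL against OVX + v) and 0.35 (OVX + RAL against sham + v). The thyroid hormone list had 10, 10 and 11 genes tested, with medians of 0.23, 0.084 and 0.69 in this order. For the lipoprotein list, with 18 genes tested each time, the medians were -0.10, -0.089 and 0.015. The lysophosphatidic acid list had -0.048, -0.14 and -0.13, and the binding proteins of fatty acids -0.30, -0.028 and 0.78. Of the other lipocalins 2, 2 and 1 genes could be tested. At an unadjusted p under 0.05 there were at most 2 genes of a list in a comparison. Of all genes tested 5.48%, 6.21% and 6.07% had such a p by edgeR, in the same order of comparisons.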

How the data were processed

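Total RNA of 20 utricle libraries (1 ng per library, 3′ kit, 75 cycles) was analysed from the deposited total counts, which are the numbers of reads per gene that the authors obtained after removing 12 nucleotides at the 5′ end and reads under 20 nucleotides and mapping to GRCm39 in CLC Genomics Workbench. The version used and the treatment of reads matching more than 1 gene are not given in the sources used here. The deposited CPM, TPM and RPKM columns and the authors' fold changes, p-values and adjusted p-values were not used. 1 file holds 3 tables, and its first table served here. All 3 tables carry identical counts for the 5 OVX + v libraries, and 0 columns belong to samples outside the series. Of 40 pairs of replicates 0 had identical counts.

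The 7 genes and all lists, and the tests, were chosen with earlier results of these data known. CPM was calculated from the total count. Differences were tested with edgeR 4.0.16 in R 4.3.3 (glmQLFit and glmQLFTest) in a fit of their 10 libraries, with the total count as library size, genes with at least 10 counts summed over these libraries, and the Benjamini-Hochberg method over all genes tested with a threshold of 0.05. Exact permutation tests (two-sided) used all 252 groupings of log2(CPM + 1). Correlations used 100000 permutations. The fits and the correlation were tested on simulated data. Named genes were the 7 genes, the 5 genes with the highest r with each, and of each list the 3 with the highest mean and any past the threshold. Some genes that this rule names are not reported here. The other genes of the pathway and marker lists that are named, and the mitochondrial share, were chosen after their values were seen.

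Alternatives were TMM factors, DESeq2 1.42.0, no filter, filterByExpr, limma 3.58.1 on log2(CPM + 1) and log2(CPM + 0.1), the robust and the legacy form of glmQLFit, all 4 groups in 1 fit, the total count less *Ptgds* as library size, the exact permutation test and each library left out in turn. Fits without sham + v replicate 1 and OVX + RAL replicate 16 together, and the robust fit and the permutation test without them, were added after the data were seen. Tables and figures were made with matplotlib 3.10.9, pandas 2.3.3, scipy 1.17.1 and numpy 2.4.6 in Python 3.11.15. The reads carry no molecular identifiers, and the floor of 3 counts covers counting error only.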

Additional observations from a re-analysis of the deposited data

Results flagged for a closer look

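In each of the 28 groups of 5 values (7 genes in 4 groups), the highest and the lowest library were compared with the rest by Dixon's ratio of gap to range, with a critical value of 0.71. The 28 groups are not independent, since the same libraries serve for all 7 genes, so that no excess can be judged. Chance alone would mark about 1.4 of 28 independent groups, and 4 were marked here. In 3 of them the library was sham + v replicate 1: *Ptgds* at 85939 CPM (nearest library 45432 CPM), *Apod* at 14264 CPM (nearest 8002 CPM) and *Apoe* at 6737 CPM (nearest 4551 CPM). The fourth was *Rbp4* in OVX + v replicate 8, at 107 CPM (nearest 153 CPM). OVX + RAL replicate 16 was not marked for any of the 7 genes, although its level of *Apod* (20502 CPM) was the highest of the 20 libraries.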

How the results depend on the processing

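No paired analysis was possible because the libraries carry the numbers 1 to 20 and no number occurs in 2 groups. Of 490 log2 fold changes of the 7 genes under the alternatives, 459 kept their sign and their side of the threshold, 6 passed it and 25 changed sign. The number of carrier genes past the threshold in sham + v against OVX + v was 1 with limma on log2(CPM + 1) and 0 to 2 with 1 library left out. In OVX + RAL against sham + v it was 0 to 2 with 1 library left out and 1 without both high libraries (sham + v replicate 1 and OVX + RAL replicate 16).

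For all genes, sham + v against OVX + v gave 1 call, and 12 with DESeq2, 4 with limma on log2(CPM + 1), 0 on log2(CPM + 0.1), 0 in the robust fit, 2 in the legacy fit, 0 by exact permutation, 1 to 8 with 1 library left out and, without the high library, 0 by permutation and 2 in the robust fit. OVX + RAL against OVX + v gave 7, and 4 with DESeq2, in the robust and in the legacy fit, 1 with filterByExpr, 0 on log2(CPM + 0.1), 2 with all groups in 1 fit, 0 by permutation with and without the high library, and 2 to 12 with 1 library left out. OVX + RAL against sham + v gave 8, and 17 with DESeq2, 5 with filterByExpr, 1 on log2(CPM + 0.1), 5 in the robust fit, 4 to 17 with 1 library left out, 14 without both high libraries, and 0 by permutation with and without them. OVX + E2 against OVX + v gave 9, and 38 with DESeq2, 4 with filterByExpr, 3 on log2(CPM + 0.1), 0 by permutation and 5 to 12 with 1 library left out. The cause was not tested. An exact permutation p adjusted over all genes could not pass the threshold for a single gene, so that its 0 calls say nothing about stability.

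Signs changed for these genes. With 1 library left out, the log2 fold change ran from -0.31 to 0.060 for *Ptgds* in sham + v against OVX + v. In OVX + RAL against OVX + v it ran from -0.070 to 0.19 for *Ptgds*, from -0.15 to 0.28 for *Apod*, from -0.22 to 0.31 for *Rbp4* and from -0.19 to 0.017 for *Apoe*. Without the high library it was -0.079 by permutation and -0.070 in the robust fit for *Ptgds*, and -0.18 and -0.15 for *Apod*. *Rbp4* was at -0.043 with limma on log2(CPM + 1) and by permutation, at -0.045 on log2(CPM + 0.1), and at -0.11 by permutation without the high library. In OVX + RAL against sham + v it ran from -0.039 to 0.42 for *Ptgds*, from -0.30 to 0.36 for *Ttr* and from -0.085 to 0.20 for *Apoe*. The 147 values of OVX + E2 against OVX + v moved by less than 1 SD. Of 1321 counts of list genes past the threshold, 1307 stayed on their side, and the other 14 were in the Schwann cell and melanocyte lists.

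The data have 5 libraries a group, and sham + v replicate 1 and OVX + RAL replicate 16 decide the calls of *Ptgds* and *Apod*. The OVX + E2 libraries had the fewest counts, and *Ttr* was read with 8 reads in OVX + E2 replicate 13 and 0 reads in sham + v replicate 5, where 3 counts are 2.40 and 1.99 CPM.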
